A study of Mus musculus with 9 samples.

Results

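Ccn1 (older symbol Cyr61), Tnc, Akap12, Tnfrsf12a, Anxa1 and Zyx are 6 mouse genes whose products are made or used by cells under mechanical load. They were followed here over 9 expression arrays of mouse lung tissue, to see which were high in overstretched lungs alone and which after endotoxin too. Each of the 6 genes was found by its symbol in the annotation of the array's platform, and each had 1 probe, so the set is 6 of 8841 named genes, 6 of 10012 probes and 6 of the 5710 probes tested. The genes had been picked with their values in overventilated against control lungs known, so those values are given as a description, without a test.

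The study set lungs injured by a ventilator beside lungs of animals given endotoxin. Of its 3 groups, each with 3 arrays, one is labelled control. Lipopolysaccharide (LPS) of E. coli, serotype O127:BO, the endotoxin of the bacterial outer membrane, was injected in the LPS group at 3 mg/kg. In the overventilation group a ventilator inflated the lungs over 3 h with 25 cmH2O of pressure. The labels give no strain, age or sex, do not say how the controls were handled or how long after the injection lungs were taken, and do not state whether each sample was another animal. The p-values below therefore measure the spread of these samples alone, and that spread may be technical.

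Cells sense stretch through the matrix they hold, the integrins that bind it and the actin fibres that pull on those integrins. Tension on these fibres is known to release 2 sets of transcriptional regulators into the nucleus, the MRTF cofactors of serum response factor (SRF) and the YAP and TAZ partners of the TEAD factors. Ccn1 and Tnc encode secreted matricellular proteins, which sit in the matrix and signal through integrins. Tnfrsf12a, also called Fn14, encodes the receptor of the cytokine TWEAK, and Akap12 a scaffold that holds protein kinases A and C near the membrane. Anxa1 encodes annexin A1, a calcium-dependent phospholipid-binding protein that restrains neutrophil recruitment, and Zyx encodes zyxin, which moves from focal adhesions to stretched actin fibres.

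The promoters of 5 of these genes, Ccn1, Tnc, Tnfrsf12a, Anxa1 and Zyx, were in the RefSeq promoter table (build GRCm38.p6). As a description, the 250 bases before each start site were searched on both strands for 7 motifs. These were the TEAD motif GGAATG, the AP-1 motif TGANTCA and TGACGT, a part of the cyclic AMP response element. The others were the CArG box bound by SRF, the NF-kB site, the GC box GGGCGG and the TATA box TATAAA. No match of one motif overlapped a match of another. Ccn1, Anxa1 and Tnfrsf12a are printed 5′ to 3′, each ending at the base before the start site. Capitals mark matches to the first 5 motifs. Ccn1 and Anxa1 are shown because they hold the TEAD letters, and Tnfrsf12a because its overventilation mean was the highest of the 6.
Ccn1, minus strand, chr3:145649986-145650235: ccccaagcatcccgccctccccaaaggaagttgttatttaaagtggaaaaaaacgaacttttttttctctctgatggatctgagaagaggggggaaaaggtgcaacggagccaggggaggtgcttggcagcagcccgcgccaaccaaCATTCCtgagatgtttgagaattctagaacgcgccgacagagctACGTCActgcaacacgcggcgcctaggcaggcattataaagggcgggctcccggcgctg
Anxa1, minus strand, chr19:20390672-20390921: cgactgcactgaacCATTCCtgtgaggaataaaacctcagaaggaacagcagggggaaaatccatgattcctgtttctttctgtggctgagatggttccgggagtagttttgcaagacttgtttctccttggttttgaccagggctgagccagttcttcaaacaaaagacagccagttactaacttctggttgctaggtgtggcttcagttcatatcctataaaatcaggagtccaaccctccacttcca
Tnfrsf12a, minus strand, chr17:23677450-23677699: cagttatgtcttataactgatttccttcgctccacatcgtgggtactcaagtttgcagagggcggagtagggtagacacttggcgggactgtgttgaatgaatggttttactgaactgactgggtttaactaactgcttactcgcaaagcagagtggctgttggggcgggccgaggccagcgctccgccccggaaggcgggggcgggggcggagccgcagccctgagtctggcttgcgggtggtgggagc

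The TEAD letters, read as CATTCC on the printed strand, lay at -103 to -98 from the Ccn1 start and at -236 to -231 from the Anxa1 start. They occur in 12.6% of 32841 promoter windows of the same length. Ccn1 also held the part of the cyclic AMP response element, as ACGTCA at -59 to -54, a motif of 6.47% of windows. Zyx held the AP-1 letters TGAGTCA at -121 to -115, a motif of 6.75% of windows. None of the 5 promoters held a CArG box (1.47% of windows) or an NF-kB site (3.9%). Neither Tnc, at either of its start sites, nor Tnfrsf12a held any of the first 5 motifs. The Tnfrsf12a window held 5 GC boxes, Ccn1 and Zyx held 2 each and both Tnc windows held 1. A share of 32.7% of windows held 1 or more, and windows with several were not counted. TATA letters (12.4% of windows) were found in Ccn1 at -25 to -20 and in Anxa1 at -32 to -27. In Tnc they lay farther off, at -126 to -121 from start site 1 and -205 to -200 from start site 2. The Tnc windows overlap, so the TATA letters and the GC box of both are the same stretches of sequence. These letters describe the sequence and do not show that a factor was bound.

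All values are deposited ratios to the mean of the 3 control arrays, given here on the log2 scale, where 0 is the control mean and 1 is a doubling. Such values carry no level of one gene against another. Each array had a floor, taken from the most frequent pattern of values over the 9 arrays. As each probe is scaled to its own controls, single values can lie below it. None of the 6 genes had 2 arrays at the floor, and how far such a probe lies from it is unknown. Overventilation array 3 had the highest floor, at 1.152 against -0.496 to 0.397 on the other arrays. A probe at the floor on all 9 arrays thus reads 1.152 there. The part of this in the values of the 6 genes on that array was not tested. Without that array their differences from control lay between 0.98 for Zyx and 3.12 for Akap12. On overventilation array 3, 110 probes exceeded the 8 remaining arrays by over 1.5, a count of 0 to 6 elsewhere. On LPS array 2, 291 probes fell short of the remaining arrays by over 1.5, a count of 1 to 41 elsewhere. In lung tissue, fewer cells of a type and less RNA per cell cannot be told apart. The lung markers Sftpc, Sftpa1, Sftpd, Napsa and Scgb1a1 were all tested, and none was found at the floor, although Napsa lay lower on all overventilation arrays than on any other array.

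Ccn1 was higher on every overventilation array than on any other array, and its LPS arrays overlapped the controls. The control arrays 1 to 3 stood at 0.45, -0.16 and -0.29, the LPS arrays at 0.00, 0.52 and -0.20, and the overventilation arrays at 1.95, 1.41 and 1.57. The lowest overventilation array was thus 0.96 above the highest control and 0.89 above the highest LPS array. The group means were 0 ± 0.39 (SD, n = 3) for control, 0.11 ± 0.37 for LPS and 1.64 ± 0.28 for overventilation. The overventilation mean corresponds to a ratio of 3.12, and the LPS mean to one of 1.08.

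Tnc, which encodes the matrix glycoprotein tenascin C, shared this order, with a wider gap between single overventilation arrays. It lay at 0.27, 0.09 and -0.36 on control arrays 1 to 3, at 0.43, 1.02 and 0.23 on the LPS arrays, and at 2.75, 1.25 and 1.62 on the overventilation arrays. All 3 overventilation arrays lay above all others, the lowest by 0.23 above LPS array 2. The means were 0 ± 0.32 (SD, n = 3), 0.56 ± 0.41 and 1.87 ± 0.78. The lowest LPS array lay 0.04 below the highest control array, so the LPS arrays overlapped the controls by this margin. Between arrays of the same number, LPS minus control was 0.16, 0.93 and 0.59. Tnc was the one gene of the 6 that was higher after LPS in all 3 such pairs, as were 12.6% of tested probes, a count added after the values were seen. With the number as a block its limma adjusted p was 0.831.

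Tnfrsf12a had the largest overventilation mean of the 6 genes, and also the widest spread over the overventilation arrays. Its values were -0.19, -0.05 and 0.24 on control arrays 1 to 3, -0.45, 0.96 and 1.09 on the LPS arrays, and 2.37, 2.68 and 5.24 on the overventilation arrays. The last value is a ratio of 37.9, on the array with many lone high probes, whereas the other overventilation arrays stood at ratios of 5.19 and 6.41. The lowest overventilation array was 1.28 above the highest LPS array. The means were 0 ± 0.22 (SD, n = 3), 0.54 ± 0.85 and 3.43 ± 1.58. Without overventilation replicate 3 the difference from control was 2.53, a 5.77-fold ratio in place of 10.8-fold.

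Akap12 was high on all overventilation arrays and on LPS arrays 2 and 3. The control arrays stood at 0.03, 0.48 and -0.51, the LPS arrays at 0.00, 3.25 and 2.52, and the overventilation arrays at 2.84, 3.40 and 3.68. LPS arrays 2 and 3, at ratios of 9.48 and 5.73, lay above all controls and LPS array 1 lay among them. LPS array 2 was above overventilation array 1, so the injury groups overlapped. The means were 0 ± 0.49 (SD, n = 3), 1.92 ± 1.70 and 3.31 ± 0.43.

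Anxa1 lay at 0.12, 0.14 and -0.27 on control arrays 1 to 3, at -0.19, 0.50 and 1.04 on the LPS arrays, and at 1.94, 1.08 and 1.87 on the overventilation arrays. The overventilation arrays stood above all LPS arrays, but the gap between overventilation array 2 and LPS array 3 was only 0.03. Its means were 0 ± 0.23 (SD, n = 3), 0.45 ± 0.62 and 1.63 ± 0.48.

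Zyx had the lowest overventilation mean of the 6. It stood at 0.09, 0.27 and -0.35 on control arrays 1 to 3, at -0.26, 0.97 and -0.01 on the LPS arrays, and at 0.56, 1.40 and 2.11 on the overventilation arrays. Overventilation array 1 was 0.29 above the highest control and lay below LPS array 2. The means were 0 ± 0.32 (SD, n = 3), 0.23 ± 0.65 and 1.36 ± 0.77. Without overventilation replicate 3 the Zyx difference from control was 0.98.

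**Figure D1:**
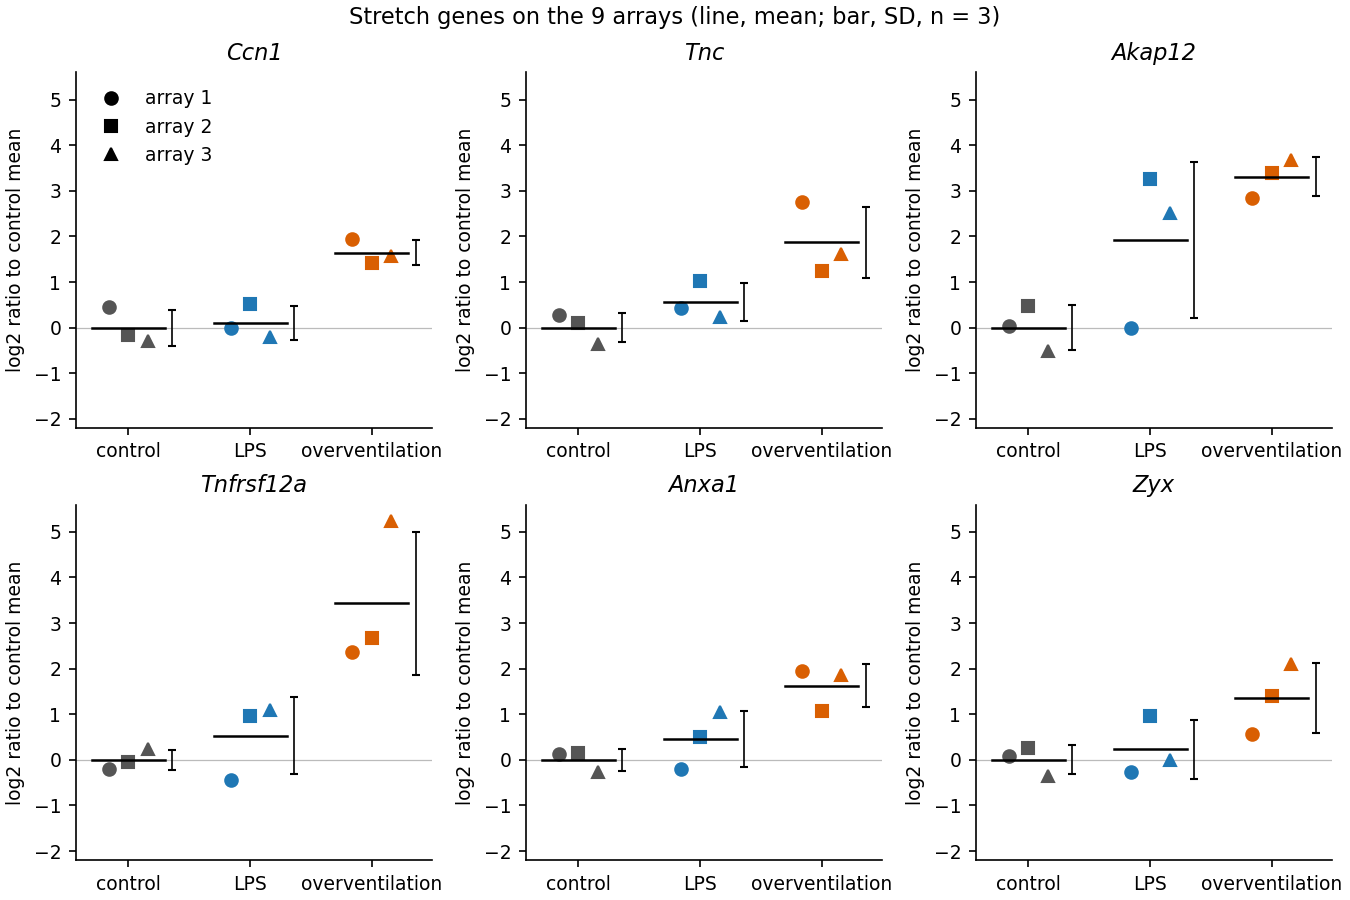
Log2 ratio to the control mean (y axis) of the 6 genes on 9 arrays, by group (x axis), with the array number as the symbol, the group mean as a line and the SD (n = 3) as a bar. All overventilation arrays lie above all control arrays in each panel, and LPS arrays 2 and 3 of Akap12, at 3.25 and 2.52, stand apart from LPS array 1 at 0.00.

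In overventilated against control lungs, all 6 genes had overventilation arrays above all control arrays, as did 9.14% of the 5710 tested probes. The genes were chosen on this contrast, so nothing is read from that count. Their median difference was 1.76, where that of all tested probes was -0.01. Tnfrsf12a and Akap12 had the third and the fourth highest difference of all tested probes, with standard errors of 0.71 and 0.72. Differences of Tnc (1.87, standard error 0.43), Ccn1 (1.64, 0.34), Anxa1 (1.63, 0.40) and Zyx (1.36, 0.47) were reached by 1.37%, 2.15%, 2.19% and 3.84% of tested probes. Over all tested probes, limma called 0 (0%) at a Benjamini-Hochberg adjusted p under 0.05, and 850 (14.9%) at an unadjusted p under 0.05. Without overventilation replicate 2 it called 290 probes, and 1 without control replicate 3.

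The comparison of LPS with control asks which of these genes an injection of endotoxin alone also raises. This contrast uses the control arrays on which the genes had been chosen, so it is not fully independent of that choice. No gene passed the test, with a limma adjusted p of 1 for each of the 6. With the array number as a block the limma adjusted p lay between 0.826 for Akap12 and 0.978 for Ccn1. All 6 means were on the higher side, as were 44.7% of tested probes, and the median was 0.49 against -0.05 over all tested probes. For none of the 6 did the LPS arrays lie above all controls, which held for 2.24% of tested probes. Over all probes limma called 0 (0%) at an adjusted p under 0.05, and 118 (2.07%) at an unadjusted p under 0.05, and it called 1 probe without control replicate 3.

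Akap12 had the largest LPS difference, at 1.92 with a standard error of 0.72 and a 95% interval of 0.31 to 3.53 that is not adjusted over probes. Only 0.21% of tested probes had a difference this high. The difference was 2.88 without LPS replicate 1 (limma adjusted p = 0.572) and 1.26 without LPS replicate 2. For Tnc the difference was 0.56 (95% interval -0.40 to 1.53), for Tnfrsf12a 0.54 (-1.06 to 2.14) and for Anxa1 0.45 (-0.44 to 1.34). Those of Zyx, 0.23 (-0.81 to 1.28), and Ccn1, 0.11 (-0.66 to 0.87), were the lowest. Single arrays moved these values too. Tnc stood at 0.33 without LPS replicate 2 and at 0.38 without control replicate 3. Tnfrsf12a was at 1.03, 0.32 and 0.26 without LPS replicate 1, 2 and 3, and Anxa1 at 0.77 without LPS replicate 1 and 0.15 without LPS replicate 3. The unadjusted intervals of all genes but Ccn1 leave room for more than a doubling after LPS. That of Ccn1 ends at 0.87, which on 3 arrays a group does not exclude one. The sign of the LPS difference was not stable for Ccn1, at -0.04 without control replicate 3 and -0.10 without LPS replicate 2, nor for Zyx, at -0.14 without LPS replicate 2.

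**Figure D2:**
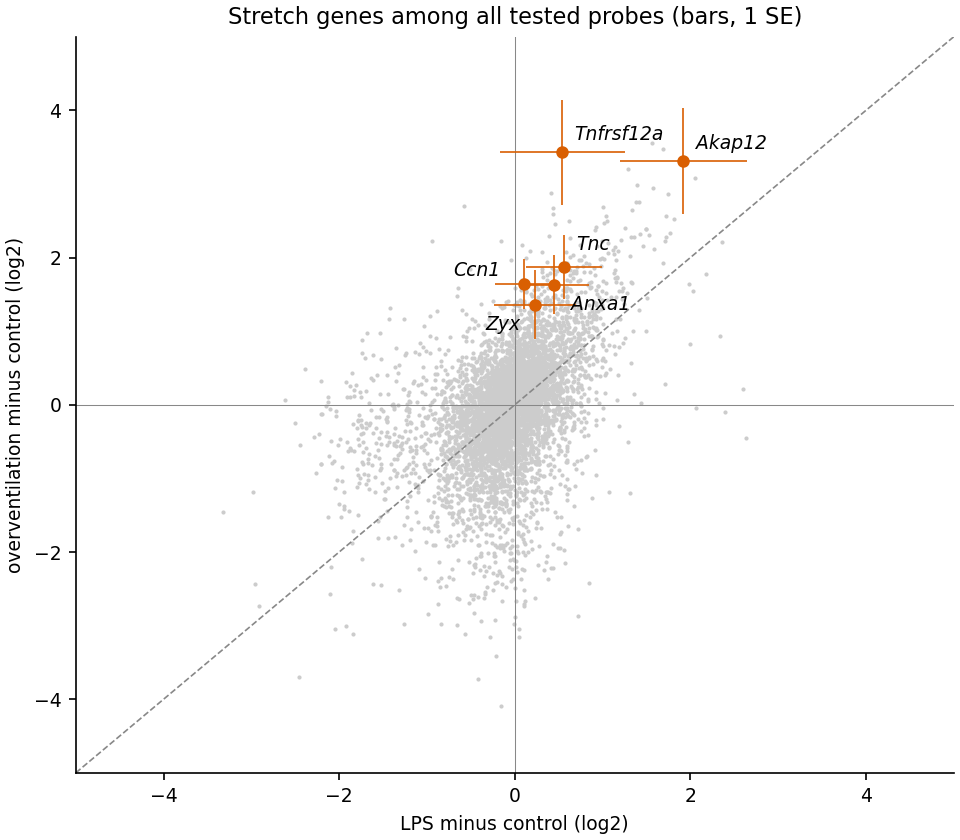
Difference of LPS from control (x axis, log2) against difference of overventilation from control (y axis, log2) for 5710 tested probes in grey and the 6 genes in orange, with bars of 1 standard error. The dashed line marks equal differences; both axes share the control arrays. All 6 genes lie above the line, and Akap12, at 1.92 and 3.31, is the farthest to the right.

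The direct comparison of overventilation with LPS asks which of the 6 differ between both injuries. It uses the overventilation arrays on which the genes had been chosen, so it is not independent of that choice. No gene passed the test. The difference was 2.89 for Tnfrsf12a (95% interval 1.30 to 4.49), 1.54 for Ccn1 (0.77 to 2.30), 1.31 for Tnc (0.35 to 2.28) and 1.18 for Anxa1 (0.29 to 2.06), each with a limma adjusted p of 0.494. Zyx differed by 1.12 (0.08 to 2.17, limma adjusted p = 0.503), and Akap12 by 1.39 (-0.22 to 2.99, limma adjusted p = 0.569). The intervals are not adjusted over probes, and since the overventilation arrays had served to choose the genes, that 5 of them leave out 0 is a description only.

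Tnfrsf12a, Ccn1, Tnc and Anxa1, 4 of the 6, had all overventilation arrays above all LPS arrays, as did 5.73% of the 5710 tested probes. Among the 522 probes whose overventilation arrays all lay above the controls, as those of the 6 genes did, 31.8% also lay above all LPS arrays, which makes 2.91% of all tested probes. Akap12 and Zyx overlapped. The median difference of the 6 genes was 1.35 against 0.07 for all probes, and it was 0.85 with quantile normalization. Over all tested probes limma called 0 (0%) at an adjusted p under 0.05, and 543 (9.51%) at an unadjusted p under 0.05. Without overventilation replicate 2 it called 226 probes, none of them one of the 6 genes, whose lowest limma adjusted p under any setting was 0.0547 for Ccn1. Without LPS replicate 1 the difference of Akap12 was 0.43, the lowest of the 6, and that of Tnfrsf12a was 2.40. Without overventilation replicate 3 the Tnfrsf12a difference was 1.99, and Ccn1 stood at 1.57.

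**Figure D3:**
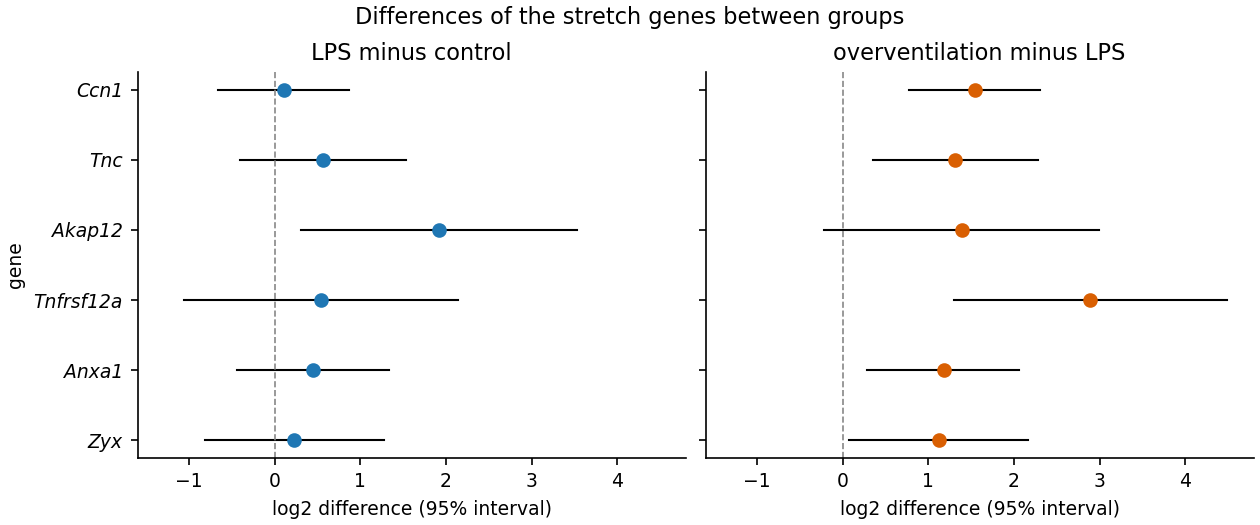
Log2 differences (x axis) of the 6 genes (y axis) for LPS minus control and overventilation minus LPS, with unadjusted 95% intervals from limma as lines. In the left panel the interval of Akap12, 0.31 to 3.53, is the one that leaves out 0, at an adjusted p of 1. The right panel rests on the overventilation arrays that served to choose the genes and is a description, with Tnfrsf12a the farthest right at 2.89.

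The 3 LPS arrays were unlike each other for these genes. On LPS array 1 Tnc alone lay above the highest control array, as did 19.1% of tested probes, and the median of the 6 was -0.10. On LPS array 2 all 6 did so, against 29.6% of tested probes, with a median of 0.96. On LPS array 3 Akap12, Tnfrsf12a and Anxa1 did so, against 19.9%, with a median of 0.64. LPS array 1 held the lowest LPS value of Akap12, Tnfrsf12a, Anxa1 and Zyx, as it did for 39.8% of tested probes. Among the controls, array 3 held the lowest value of all genes but Tnfrsf12a, and over all tested probes array 3 was the lowest control at 41.3%.

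Ccn1, Tnc and Anxa1 were highest on overventilation array 1 and lowest on array 2, while Akap12, Tnfrsf12a and Zyx were highest on array 3 and lowest on array 1. Over all tested probes, 30.6% were highest on array 1 and 38.8% on array 3, and 43.3% were lowest on array 1 and 28.8% on array 2. Ccn1 and Tnc, the matricellular genes, had the highest correlation of the 15 pairs over the 9 arrays, with r = 0.94. All 15 were positive, with a median of 0.80 and a lowest value of 0.62 for Tnc and Zyx. Since the genes were chosen for a shared difference between groups, such correlations are a description. Deviations from the group means leave that difference out, and on these the Ccn1 and Tnc pair stood at 0.83. Zyx stood at 0.71 with both Akap12 and Tnfrsf12a. The median pair was 0.23, and Tnc and Tnfrsf12a had the lowest value, -0.27. All pairs share the same 9 arrays and whatever scales them.

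**Figure D4:**
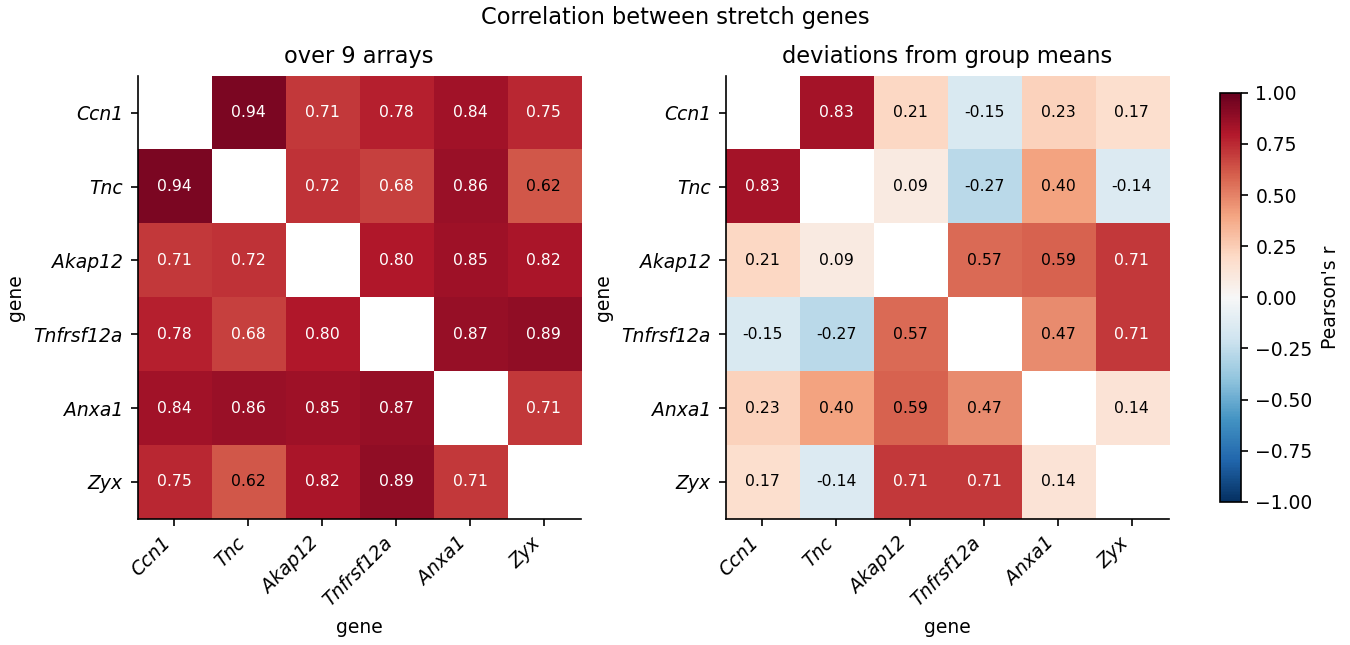
Pearson's r for each pair of the 6 genes over the 9 arrays (left) and over deviations from the group means (right), as colour and number. The Ccn1 and Tnc pair is the highest in both panels, at 0.94 and 0.83, and Tnfrsf12a and Tnc turn from 0.68 on the left to -0.27 on the right.

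The named probes most like each gene over the 9 arrays, by Pearson's r, were looked up among all tested probes. For Ccn1 they were Hspb8, a small heat shock protein gene (r = 0.985), Tnc (0.936) and the asparagine synthetase gene Asns (0.929). Hspb8 lay at 1.76, 1.30 and 1.21 on the overventilation arrays and between -0.25 and 0.36 on the LPS arrays. For Tnc they were Hspb8 (0.938), Ccn1 (0.936) and the peroxiredoxin gene Prdx1 (0.925). Both matricellular genes thus had Hspb8 as their nearest match.

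For Tnfrsf12a the stress-induced transcription factor gene Atf3 came first (r = 0.988), followed by the asparaginyl-tRNA synthetase gene Nars (0.983) and the phosphatase gene Dusp8 (0.980). Atf3 stood at 1.58, 1.91 and 4.56 on the overventilation arrays and at -0.74, 1.05 and 0.97 on the LPS arrays, so it too had its highest value on overventilation array 3. For Akap12 the nearest were the tissue factor gene F3 (r = 0.978), Pawr (0.977) and the membrane protein gene Tm4sf1 (0.976). F3 lay at -0.23, 2.37 and 1.83 on the LPS arrays, low on array 1 and high on the others as Akap12 was. For Anxa1 they were the ephrin receptor gene Epha2 (0.970), Akr1b8 (0.945) and B3galnt1 (0.943). For Zyx they were the tryptophan-degrading enzyme gene Ido1 (0.978), the ubiquitin-like modifier gene Ufm1 (0.974) and Ethe1 (0.967). Each such r is among the highest of 5710 tested probes over 9 arrays and gives no measure of chance.

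The relatives and partners of the 6 genes lay on both sides of the control mean. Of 165 other genes in 8 lists of families and pathways, 124 had a probe and 72 were tested. In overventilated against control lungs 7 of the 72 had arrays above all controls, next to the 9.14% of all probes, and 1, the tropomyosin gene Tpm2, had arrays below them, next to 10.5%. Tpm2 was chosen for mention after its values were seen. Their median difference was 0.07. After LPS 0 of the 72 had arrays clear of the controls in either direction, next to 2.24% higher and 4.08% lower. Against LPS 2 had overventilation arrays above all LPS arrays, Ccn3 and Fhl1, and 1, S100a11, below them, next to 5.73% and 5.46%. Fhl1 and S100a11 were also chosen after their values were seen. None passed limma's test in any of the 3 comparisons, as for all probes.

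Among the matricellular genes, Ccn2, also called connective tissue growth factor, was the nearest to Ccn1 in size. It stood at 0.40, 2.19 and 2.86 on the overventilation arrays, with a mean difference from control of 1.82 (standard error 0.63), but array 1 overlapped the controls, which reached 0.91. The other tested CCN genes were Ccn3 (0.77), Ccn4 (0.32) and Ccn5 (-1.44), the lowest. In the list of other matrix proteins the 7 tested relatives of Tnc had a median of 0.02, from Fbln5, a fibulin gene, at -0.72 to the periostin gene Postn at 0.23 and Sparcl1 at 0.30. Of the receptors of both proteins, 5 of 15 with a probe were tested. Of the rest, 6, the integrin genes Itgav, Itgb5, Itga2, Itga5, Itga6 and Itga8, were at the floor on all 9 arrays. The syndecan genes Sdc4 and Sdc1 had differences of 0.90 and 0.38, and the integrin beta 1 gene Itgb1 one of -0.46. For 0 of these 5 were the overventilation arrays clear of the controls, next to 9.14% of all probes above and 10.5% below, and so few genes show nothing either way.

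Tnfsf12, which encodes TWEAK, the ligand of Tnfrsf12a, lay at -0.07, 0.34 and -0.43 on the overventilation arrays and between -0.22 and 0.18 on the controls, a difference of -0.05 (standard error 0.33). Of the 15 other tested genes in the list of TNF receptors, ligands and adaptors, Tnfsf12 among them, 2 had overventilation arrays above all controls, a share near the 9.14% of all probes. They were Cd40, a receptor of antigen-presenting cells, at 1.79, and the death receptor gene Tnfrsf10b at 0.78. The lowest of the list was Tnfrsf4, at -0.46. Among the other anchors of protein kinase A and kinase subunits, 6 were tested, with a median of 0.14. Akap2 was the highest, with 1.37 and 2.45 on overventilation arrays 2 and 3 and -0.07 on array 1. The kinase subunit gene Prkar1a was next at 0.34, and Akap3 the lowest at -0.21.

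Annexins were spread to both sides. Anxa2, a plasminogen receptor on the cell surface, had a difference of 1.68 (standard error 0.50), close to that of Anxa1, and all its overventilation arrays lay above the controls. Anxa6 was next at 0.94. Anxa3 was the lowest, at -1.66, 0.12 and -2.60 on the overventilation arrays, so its mean of -1.38 rests on arrays 1 and 3. The 10 other tested genes of this list had a median of -0.27. Fpr2, a receptor through which annexin A1 acts on leukocytes, had a difference of 0.66, with arrays at 0.50, 0.82 and 0.67 against controls that reached 0.45. After LPS Fpr2 stood at -0.37, 1.42 and 0.17.

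Of the partners of zyxin, Vasp, an actin polymerization factor that zyxin binds, had overventilation arrays at 0.76, 1.44 and 2.34, all above the controls, which reached 0.67. Its difference was 1.51 (standard error 0.46). Its LPS arrays stood at 0.57, 0.93 and 0.64, closer together than those of Zyx. The parvin gene Parva also had arrays above all controls, with a difference of 0.70. The 8 other tested genes of this list had a median of -0.17. The lowest of this list was the LIM protein gene Csrp2, at -2.09, 0.77 and -1.85 on the overventilation arrays. Vcl, the vinculin gene, was at the floor on 4 arrays and was not tested. Among 17 tested targets and factors of the SRF and YAP pathways the median was 0.41. F3 was the highest at 2.28 and the smooth muscle actin gene Acta2 the next at 1.21, with 2.99 on overventilation array 3. The lowest was Cnn1, the calponin gene, at -0.53.

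**Figure D5:**
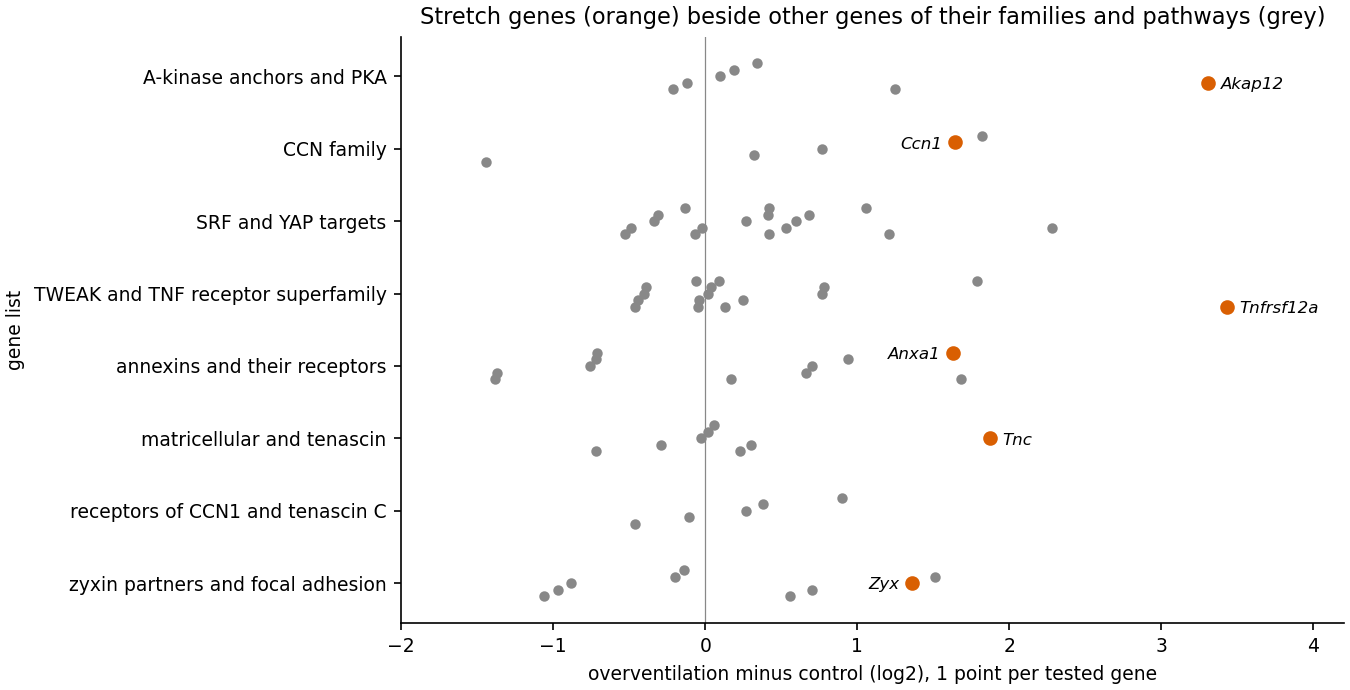
Difference of overventilation from control (x axis, log2) for each tested gene of 8 lists (y axis), with the 6 genes in orange and the others in grey. Ccn2 at 1.82, Anxa2 at 1.68 and Vasp at 1.51 are the grey points level with or beyond the orange one of their list.

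Markers of 11 cell types were set beside these patterns. Smooth muscle markers, whose cells can make Tnc and Ccn1, had 4 of 4 genes tested (3 of them, Acta2, Tagln and Cnn1, also SRF targets above) and a median difference of -0.28 in overventilated against control lungs, with array medians of -0.57 to 0.38 in controls, -0.99 to 0.01 after LPS and -0.90 to 0.12 after overventilation. Fibroblast markers had 2 of 5 tested (Dcn and Pdgfra) and a median of -1.05, with arrays at -0.56 to 0.60, -0.45 to 0.17 and -1.81 to -0.58 in the same order. Neutrophil markers, whose cells carry Anxa1, had 2 of 6 tested (S100a8 and Csf3r) and a median of -0.98. Their arrays lay at -0.94 to 0.51 in controls, at -0.64 to -0.35 after LPS and at -1.04 to -0.92 after overventilation. The median difference of each of these 3 lists was below 0, but 1 of the 4 smooth muscle markers, Acta2, went the other way at 1.21. The fibroblast and neutrophil medians rest on 2 genes each.

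Alveolar type I markers, with 3 of 4 tested, had a median of 0.37, with arrays at -0.83 to 0.18 in controls, 0.05 to 1.01 after LPS and -0.22 to 3.15 after overventilation. Of these Ager, at 1.19, 1.14 and 4.48 on the overventilation arrays, had its highest value on array 3 as Tnfrsf12a did. Alveolar type II markers, with 4 of 6 tested, had a median of 0.18, with arrays at -0.16 to 0.26, -0.33 to 0.33 and -0.41 to 0.75 in the same order, and went both ways. The protease gene Napsa stood at -1.89, -2.53 and -1.98 on the overventilation arrays, a difference from control of -2.13, below all control and LPS arrays. The surfactant protein gene Sftpd stood at 0.61, 0.89 and 4.12, so it too was highest on array 3.

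Platelet markers, with 2 of 4 tested and Itga2b and Gp9 at the floor on all 9 arrays, had a median of 0.14, with arrays at -0.52 to 0.47 in controls and -0.02 to 0.40 after overventilation, and at most -0.17 after LPS. Of these Pf4 stood at 0.86, 0.86 and 2.50 on the overventilation arrays, above all control and LPS arrays, with a difference from control of 1.41, and Ppbp had one of -1.13. Endothelial markers, with 2 of 4 tested (Tek and Kdr) and Cdh5 at the floor on all 9 arrays, had a median of 0.49, with arrays at -0.58 to 0.54, -1.18 to 0.55 and 0.15 to 0.85 in the same order. Club cell markers, with 2 of 3 tested, had a median of -0.23, with arrays at -0.37 to 0.51, -0.44 to 0.22 and -0.70 to 0.22. Macrophage markers, with 2 of 5 tested and Adgre1 at the floor on all arrays, had a median of -0.40, with arrays at -1.14 to 1.22, -2.03 to 1.77 and -0.80 to 0.13. The 1 tested mesothelial marker of 3, Wt1, had a difference of 0.27, with arrays at -0.52 to 0.35, -0.10 to 0.50 and -0.15 to 0.87, and Msln was at the floor on all arrays. Adipose markers, with 3 of 5 tested, were low on control array 3 (median -1.70 against 0.75 and 0.93) and on all LPS arrays (-5.28 to -1.93), and stood at -2.21 to -0.36 after overventilation. The part of these cell types in the levels of the 6 genes was not tested. Without control replicate 3 the overventilation differences of the 6 genes were between 1.18 for Zyx and 3.55 for Tnfrsf12a.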

How the data were processed

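RNA of 9 lung samples had been measured on arrays (maker, dyes, scanner and normalization: not given in the sources used here). Linear ratios were deposited by the authors: at each probe the mean log2 ratio of the 3 control arrays was 0 (largest deviation 2.5e-09), so the scaling between arrays is unknown. At 4690 probes 2 or more arrays sat at a floor (tolerance 1e-06). Each of these probes was shifted so that its floor matched the floor of each array. Lower values were then raised to the highest floor, a ratio of 2.222 (log2 1.152), and the probe was set to its control mean again. Probes above the highest floor on 3 or more arrays, or with no known floor, were tested (5710 of 10012). None of the 6 genes was among the 4690, so their values stand as deposited. The 3 groups entered one limma fit (version 3.58.1, R 4.3.3; lmFit over all 9 arrays, 3 contrasts, eBayes, two-sided, Benjamini-Hochberg over all tested probes). The fit was also run on simulated data with independent noise at each probe. Those data held no floors and no effects shared by the probes of an array, so they do not show how the fit behaves here.

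The arrays' number, 3 per group, limits the precision. The platform annotation names 1 gene for 8983 probes, several for 1 and none for 1028. At 66 genes with 2 tested probes, both probes had a median correlation of -0.034, so a value is that of 1 probe. Each of the 6 genes rests on 1 probe, and whether another probe of the same gene would follow it is unknown. Genes, lists and tests were chosen with earlier results of these data known. Named genes were the 6, the 2 highest and the lowest of each of the 8 lists after overventilation, the direct partners and the 3 most alike probes. Fpr1 was not analysed here. The labels do not say whether a shared number pairs the arrays. Same-numbered arrays of LPS and control deviated together (r = 0.497, 0.247 and 0.199). Those of overventilation and control (0.508, 0.133 and 0.033) and of overventilation and LPS (0.496, 0.211 and 0.038) did so alike at number 1 and less at numbers 2 and 3. The main fit took no pairing, and a replicate block over all 3 groups was run as an alternative. Alternatives covered normalization, floor, filter, array weights, a replicate block and each array left out.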

Additional observations from a re-analysis of the deposited data

How the results depend on the processing

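Each of 24 values, 3 counts of probes called, 3 medians of the 6 genes and 18 differences of single genes, was recomputed under 16 alternatives. Of 384 such values 375 were rated the same, 6 moved and 3 changed sign. A count of probes was rated the same if unchanged. Medians, and overventilation differences from control, had to keep their sign and shift by less than the SD between replicates. The other gene differences had to keep their sign and their side of the threshold. Many of the gene differences could not change, so the count of 375 overstates their stability. The 6 genes had no known floor, so the floor and filter alternatives left their differences as they were. Adding the replicate block, or leaving out an array of the group outside a comparison, did so too. No gene passed the test after LPS, or in overventilation against LPS, under any of the 16 alternatives, with the lowest limma adjusted p at 0.0547 for Ccn1 against LPS. With quantile normalization the median of overventilation against LPS was 0.85 and the Akap12 difference from control 2.77. The LPS difference turned to -0.04 for Ccn1 without control replicate 3, and without LPS replicate 2 to -0.10 for Ccn1 and -0.14 for Zyx. With single replicates left out it ranged from -0.10 to 0.33 for Ccn1 and from -0.14 to 0.48 for Zyx. Leaving out single replicates gave 0 to 290 probes called in overventilation against control, 0 to 1 in LPS against control and 0 to 226 in overventilation against LPS, the 290 and the 226 without overventilation replicate 2. The cause was not tested. Over those runs the medians of the 6 genes were 1.60 to 2.05, 0.31 to 0.70 and 1.07 to 1.64. With the replicate block, over all 3 groups, 0 probes were called in each comparison. The medians stayed at 1.76, 0.49 and 1.35, which the block cannot change because each group holds each number once. With 3 arrays a group and an unknown scale between arrays, small changes cannot be resolved.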
